A study of Mus musculus with 10 samples.

Results

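Mice of the cKO group were compared with mice of the Hetero group, both of which carried Nex-cre, so that Cre was present on each side and the number of Rxra alleles open to deletion differed. The libraries were chosen by their labels: 4 cKO and 2 Hetero libraries, 6 of the 10 in the series. All came from C57BL/6 mice at postnatal day 17, from S1BF, the whisker barrel field of somatosensory cortex. Per the series title, cKO is Nex-cre with Rxratm1Krc/J (Rxra cKO), Hetero is Nex-cre with the same floxed allele as a conditional heterozygote (Rxra cKO-Het), and Loxp is the floxed allele alone. The 4 Loxp libraries carried no Cre. Their values are given for reference, and they were also part of the fit, where they help to estimate the spread behind each SE and p-value. Counts were deposited for 52636 genes, of which 18455 passed the filter on low counts and were tested. With 2 Hetero libraries, each one is given apart throughout. Whether the libraries are of separate animals is not in the labels, and the p-values cover only the variation among these samples, which may be technical.

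Rxra encodes the retinoid X receptor alpha, a nuclear receptor that binds DNA as the partner of retinoic acid, thyroid hormone, liver X, peroxisome proliferator-activated and vitamin D receptors. Nex-cre expresses Cre from Neurod6, a transcription factor gene of cortical excitatory neurons, and acts in most of these neurons from embryonic life. Interneurons, glia and vessels largely keep their Rxra alleles in this model, and their RNA is part of each library. The barrel field receives touch input from the whiskers through the thalamus, and neurons there switch on immediate early genes within minutes of strong input.

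Total counts were 19332990 in Hetero 1 and 22198491 in Hetero 2, and 23133301 to 25997122 in the cKO libraries. Before any comparison, 3 libraries differed from the rest in ways that touch the results. Hetero 2 had a high level of choroid plexus transcripts, whose summed level was 1318 CPM (counts relative to the scaled library total) against 333 in Hetero 1 and 210 to 367 in cKO. cKO 2 had the lowest summed meningeal fibroblast level (90 CPM against 299 to 539 in the other 9 libraries) and the lowest oligodendrocyte level, with the highest level of oligodendrocyte precursor genes. In bulk RNA, fewer cells of a type and less RNA per cell cannot be told apart. cKO 2 also stood apart over all genes, with a chi-squared per gene of 23.1 to 41.2 against each other library. Among the Hetero and other cKO libraries these values were 4.92 to 12.5. Pairs with a Loxp library, cKO 2 aside, reached 24.4 (Loxp 1 and Loxp 2). cKO 2 and cKO 4 contained Y-linked transcripts (147 and 148 CPM summed over 4 genes), whereas cKO 1, cKO 3 and both Hetero libraries held under 1 CPM of them. Of the Loxp libraries, Loxp 3 alone contained them (135 CPM). Sex therefore differs in part with the group, and values for cKO 1 and cKO 3 against the 2 Hetero libraries are given as values "without the Y-bearing libraries". Loxp 3 was left out of that fit too. Leaving out the libraries that stand apart was an alternative chosen after seeing the data.

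Rxra (ENSMUSG00000015846, chromosome 2, 27676440 to 27762957, GRCm38) had 23.2 CPM in Hetero 1 and 26.4 in Hetero 2. In cKO 1 to cKO 4 it had 29.0, 32.3, 29.3 and 32.0 CPM. Every cKO library thus lay above both Hetero libraries, and the Loxp libraries spanned 21.6 to 31.8 CPM. The log2 fold change of Rxra, cKO minus Hetero, was 0.30 (SE 0.14, unadjusted p = 0.0483, edgeR adjusted p = 1). It was 0.23 without the Y-bearing libraries and 0.22 to 0.40 with 1 library left out. An exact two-sided permutation test over the libraries gave p = 0.0667, the smallest that the 15 arrangements of 4 against 2 allow, so no single gene could reach 0.05 by that test. The counts are per gene. They include reads outside the floxed part and reads from cells without Cre, and they do not check the deletion.

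The other RXR genes showed no such order. Rxrb, the receptor found in most cell types, had 108 and 109 CPM in the Hetero libraries and 102 to 111 in cKO (log2 fold change −0.03, SE 0.0898). Rxrg, known from striatal neurons, had 8.74 and 6.52 CPM in Hetero and 13.9, 3.41, 10.6 and 4.77 in cKO. The Rxrg log2 fold change of 0.10 had an SE of 0.752, and its sign changed with the library left out. Neurod6, where Cre sits (ENSMUSG00000037984, chromosome 6, 55677822 to 55681263), had 34.4 and 34.0 CPM in Hetero and 32.9, 22.9, 38.1 and 24 in cKO. Its libraries overlapped, the log2 fold change was −0.21 (SE 0.235), and the value was 0.05 without the Y-bearing libraries. The low Neurod6 values of cKO were those of the libraries with Y transcripts. In Loxp the order differed: Loxp 3, with Y transcripts, had 61.9 CPM, and Loxp 4, without them, had the lowest value at 34.9.

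Over all 18455 tested genes, edgeR's quasi-likelihood test called 0 at an adjusted p under 0.05, a percentage of 0, and the smallest adjusted p was 1. At an unadjusted p under 0.05 there were 321 genes (1.74%), where 922.8 would be the number at that level by chance. Of these, 180 (0.975%) were higher and 141 (0.764%) lower in cKO. Without cKO 2, 270 genes were higher and 278 lower at that level. limma-voom called 0 genes, and DESeq2 called 3 (0.0163%): Esd, Aqp1 and Slc4a5. The median log2 fold change was 0.01, percentiles 5 and 95 were −0.42 and 0.51, and 52.5% of genes had a positive value. In 1741 genes (9.43%) the 2 Hetero libraries both lay outside the cKO range on the same side, with cKO above in 904 (4.9%) and below in 837 (4.54%). Of the 15 arrangements of 4 against 2 libraries, 1 puts all cKO libraries above and 1 puts all below, a share of 0.0667 each. Both observed shares were smaller, so lack of overlap alone does not mark a gene as different. The percentages over all tested genes are the background against which the counts of each gene list are read below.

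**Figure D1:**
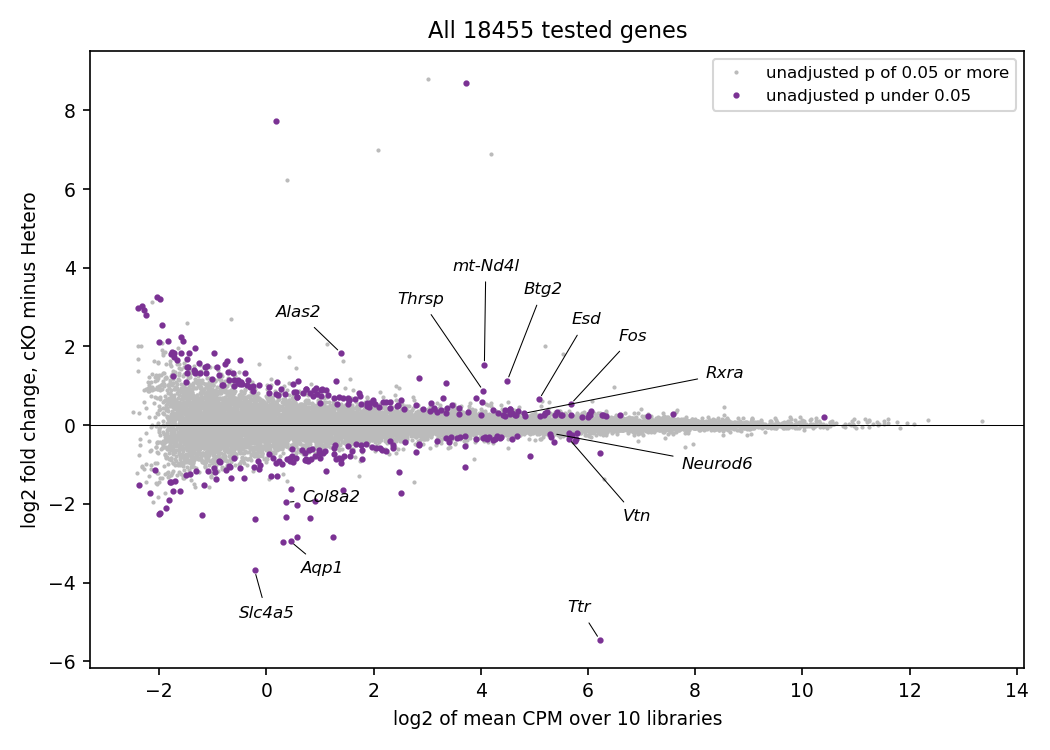
Log2 fold change of each tested gene, cKO minus Hetero, against the log2 of its mean CPM over the 10 libraries. Purple points are the 321 genes with an unadjusted p under 0.05, and none passed the adjusted threshold. Most points above a log2 fold change of 6 are Y-linked genes, and Ttr at −5.45 is carried by Hetero 2.

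No gene passed, so the 12 genes in each direction with the smallest unadjusted p are named, among those whose mean log2 CPM exceeded 0 and whose groups did not overlap. Each was chosen by this comparison, and its edgeR adjusted p was 1. On the higher side stood Esd, which encodes the S-formylglutathione hydrolase esterase D (ENSMUSG00000021996, chromosome 14, 74732297 to 74750765). Esd had 21.7 and 27.1 CPM in Hetero 1 and Hetero 2 and 40.6, 36.0, 39.2 and 38.2 in cKO. The cKO libraries sat close together, and the gap to the higher Hetero library exceeded their whole range. The mean CPM of Esd was 38.5 ± 1.92 (SD, n = 4) for cKO and 24.4 ± 3.85 (SD, n = 2) for Hetero, beside 34.5 ± 4.33 (SD, n = 4) for Loxp. Its log2 fold change was 0.66 (SE 0.13, unadjusted p = 0.000202, edgeR adjusted p = 1, DESeq2 adjusted p = 0.0279), and 0.71 without the Y-bearing libraries.

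Thrsp, a gene of lipid synthesis that responds to thyroid hormone, had 8.84 and 11.1 CPM in Hetero and 13.4, 16.2, 16.2 and 27.8 in cKO (log2 fold change 0.88, SE 0.265). cKO 4 was the highest of these libraries, and the value was 0.57 without the Y-bearing libraries. Bag3, a co-chaperone of Hsp70, had 5.72 and 4.63 CPM in Hetero and 6.54, 6.74, 8.41 and 7.94 in cKO (log2 fold change 0.52, SE 0.177). Selplg, the P-selectin ligand carried by microglia in the brain, had 19.6 and 18.7 CPM in Hetero and 23.1, 27.7, 24.5 and 27.6 in cKO (log2 fold change 0.42, SE 0.117). Ikzf1, a transcription factor of blood and immune cells, had 3.37 and 3.87 CPM in Hetero and 5.02 to 5.74 in cKO. Chaf1a, a subunit of chromatin assembly factor, had 2.91 and 4.18 CPM in Hetero and 5.10 to 5.56 in cKO.

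The other 6 genes on this side were Gpld1 (log2 fold change 0.32), which encodes a phospholipase that cuts GPI anchors, Kirrel2 (0.39), an adhesion protein of the immunoglobulin family, Lonrf3 (0.64), Terb1 (1.06), which tethers telomeres in meiosis, Pcdhgb5 (0.74) and Ino80dos (0.55). Pcdhgb5 shares exons with the other gamma protocadherins, and Ino80dos is named as antisense to Ino80d. The sources used here do not give the strand setting of the counting, so reads of such genes cannot be assigned firmly. Terb1 had only 1.02 and 0.495 CPM in the Hetero libraries against 1.34 to 1.9 in cKO. Without Hetero 1 the log2 fold change was 1.66 for Terb1, 0.37 for Lonrf3 and 0.36 for Chaf1a (0.59 with both Hetero libraries). Without Hetero 2 these were 0.62, 0.99 and 0.88.

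On the lower side, Vtn was the most abundant gene. It encodes vitronectin, made in the brain by pericytes (ENSMUSG00000017344, chromosome 11, 78499091 to 78502324). Vtn had 58.0 and 59.6 CPM in Hetero and 43.5, 47.6, 46.0 and 48.7 in cKO, with no library near the other group. Its log2 fold change was −0.34 (SE 0.0962, unadjusted p = 0.00353, edgeR adjusted p = 1), −0.39 without the Y-bearing libraries and −0.37 to −0.31 with 1 library left out. Dfna5, the gene of gasdermin E, had 23.0 and 24.5 CPM in Hetero and 18.3 to 20.1 in cKO (log2 fold change −0.32, SE 0.103). Klf14, a Krüppel-like transcription factor, had 1.74 and 2.02 CPM in Hetero and 0.552 to 0.950 in cKO (log2 fold change −1.29, SE 0.345). Ccl27b, a chemokine gene with near-identical copies that make its counts uncertain, had 4.5 and 3.55 CPM in Hetero and 1.26, 0.345, 1.01 and 0.502 in cKO.

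Collagen genes stood among the lower ones. Col4a4, a basement membrane collagen, had 1.53 and 1.93 CPM in Hetero and 1.06, 1.08, 0.857 and 0.585 in cKO (log2 fold change −0.95, SE 0.31). Col8a2, a collagen VIII chain known from choroid plexus and cornea, had 1.58 CPM in Hetero 1 but 4.77 in Hetero 2, against 0.543 to 0.993 in cKO. Its log2 fold change of −1.96 (SE 0.387) was −0.95 without Hetero 2. Lbp, the lipopolysaccharide-binding protein (3.17 and 8.63 CPM in Hetero), and Slc2a12, a glucose transporter gene (3.12 and 6.20 CPM), had the same shape. The Lbp log2 fold change was −1.64, and −0.74 without Hetero 2. For Slc2a12 it was −0.95, and −0.36 without Hetero 2.

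Aldh1a3, which makes retinoic acid from retinal, had 1.63 and 3.24 CPM in Hetero and 1.14, 0.777, 0.973 and 0.251 in cKO (log2 fold change −1.62, SE 0.545). It was −1.05 without Hetero 2. The other lower genes were Olfml2a (log2 fold change −0.77), an olfactomedin-like gene, Rbpms2 (−0.94), an RNA-binding protein gene, and Cercam (−0.87), an adhesion gene of cerebral endothelium. All 24 genes kept their sign without the Y-bearing libraries. Leaving out 1 Hetero library cut the size of the log2 fold change to 50% or less in 0 of the 12 higher and 3 of the 12 lower genes, Col8a2, Lbp and Slc2a12. The Loxp mean lay between the Hetero and cKO means in 12 of 12 higher and 8 of 12 lower genes, and beyond the cKO mean in the other 4. It was nearer to cKO in 9 of the higher and 11 of the lower genes. The genes were chosen for their gap between Hetero and cKO, so these positions are a description.

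**Figure D2:**
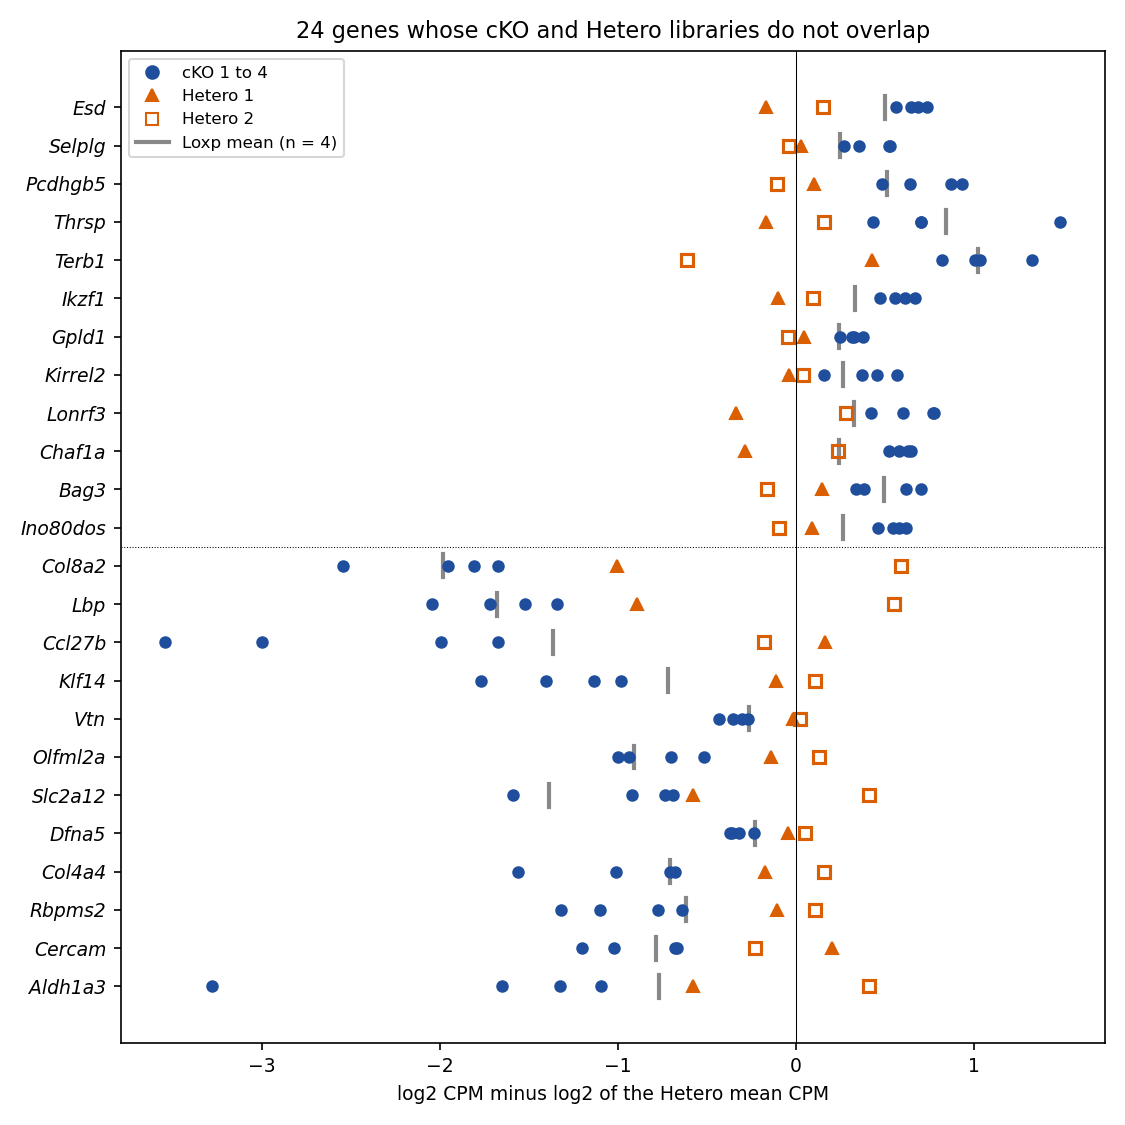
Each library's log2 CPM relative to the log2 of the Hetero mean, for the 12 higher (above the dotted line) and 12 lower genes without overlap. Circles are cKO libraries, the triangle is Hetero 1, the open square is Hetero 2 and the bar is the Loxp mean. Hetero 2 stands far to the right of Hetero 1 for Col8a2, Lbp, Slc2a12 and Aldh1a3, whereas both Hetero libraries lie close together for Vtn, Dfna5 and Klf14.

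In other genes 1 Hetero library lay within the cKO range and the other outside it. Of these, the 6 with the smallest unadjusted p in each direction are named, among those whose mean log2 CPM exceeded 0. On the lower side Ttr, the transthyretin gene and the main transcript of choroid plexus, had 699 CPM in Hetero 2 and 3.52 in Hetero 1. In cKO it had 18.5, 10.5, 2.26 and 0.752 CPM, so that Hetero 1 sat among them. The Ttr log2 fold change was −5.45 (SE 1.22) with both Hetero libraries and 1.18 without Hetero 2. Kl, the klotho gene, had 1.12 and 13.8 CPM in Hetero 1 and 2 against 0.818 to 1.58 in cKO, and its log2 fold change went from −2.83 to −0.09 without Hetero 2. F5 (coagulation factor V), Sostdc1 (a BMP and Wnt antagonist) and Msx1 (a homeobox gene) followed the same order, with 6.61, 8.59 and 5.98 CPM in Hetero 2 and 1.12, 1.23 and 2.4 in Hetero 1. Without Hetero 2 their log2 fold changes were −0.23, 0.08 and −0.06. mt-Co3 had 34.6 and 61.6 CPM in Hetero and 21.3 to 40.5 in cKO, and its log2 fold change of −0.78 was −0.30 without Hetero 2.

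On the higher side these were mt-Nd4l, Fam19a2, Thbs2, Htra1, Gpt2 and Car15, and the log2 fold change of each stayed positive with either Hetero library left out. mt-Nd4l, a mitochondrial complex I subunit gene, had 9.76 and 11.4 CPM in Hetero and 55.7, 10.5, 32.9 and 23.2 in cKO. cKO 2 lay at the Hetero level there, and cKO 1 was the highest. The log2 fold change of mt-Nd4l was 1.53, with 1.43 without Hetero 1 and 1.65 without Hetero 2. For Car15 it was 0.74, with 0.39 without Hetero 1 and 1.24 without Hetero 2. Htra1, a secreted serine protease gene of astrocytes, had 156 and 171 CPM in Hetero and 167 to 225 in cKO (log2 fold change 0.29, SE 0.123). Fam19a2, a gene of a secreted chemokine-like protein, had 53.3 and 60.8 CPM in Hetero and 60.1 to 88.8 in cKO (log2 fold change 0.37, SE 0.135). The mitochondrial genes have nuclear copies, which makes their counts uncertain.

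Immediate early genes are switched on by synaptic input and calcium without new protein synthesis, in part through CREB bound to cyclic AMP response elements (CREs). Of 41 listed and tested genes, 37 (90.2%) had a positive log2 fold change, and the median was 0.22 against 0.01 over all genes. All 4 cKO libraries lay above both Hetero libraries in 12 of the 41 (29.3%, beside 4.9% over all genes) and below them in 0 (4.54% over all genes). At an unadjusted p under 0.05 there were 5 higher (12.2%, beside 0.975%) and 0 lower. No gene of the list passed the adjusted threshold. The level of the list, the mean log2 CPM of its genes centred on each gene's mean over the 10 libraries, was −0.34 in Hetero 1 and −0.37 in Hetero 2, the lowest of the 10 libraries. It was −0.18, −0.06, −0.10 and −0.0025 in cKO and −0.09 to 0.55 in Loxp.

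The 4 immediate early genes with the smallest p were Csrnp1, Fos, Btg2 and Cyr61. Jun, the fifth with an unadjusted p under 0.05, was added after its value was seen. The 250 bases before the transcription start are printed for Fos, Btg2, Cyr61 and Jun, which have 1 listed start each. Csrnp1 has 4 listed starts and is not printed. All 4 printed genes were higher in every cKO library, as was Csrnp1, and 3 of the printed genes hold a CRE core. The sequences are from RefSeq (GRCm38.p6), 5′ to 3′ on the gene's own strand. Capitals mark the first match to the CRE core (TGACGT, or ACGTCA on the other strand), extended to the full palindrome TGACGTCA where present. Positions count back from −1, the base before the start.
Fos, chr12:85473640-85473889, plus strand: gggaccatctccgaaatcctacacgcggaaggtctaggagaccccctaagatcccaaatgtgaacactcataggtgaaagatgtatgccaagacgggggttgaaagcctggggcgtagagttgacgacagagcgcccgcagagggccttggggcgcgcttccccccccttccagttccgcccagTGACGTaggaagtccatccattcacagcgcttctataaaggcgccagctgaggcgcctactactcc
Btg2, chr1:134079156-134079405, minus strand: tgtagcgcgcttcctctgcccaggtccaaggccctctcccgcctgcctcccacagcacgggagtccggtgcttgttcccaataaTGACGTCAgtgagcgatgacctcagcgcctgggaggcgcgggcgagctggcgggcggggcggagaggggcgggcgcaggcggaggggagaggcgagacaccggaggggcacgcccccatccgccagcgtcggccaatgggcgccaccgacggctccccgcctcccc
Cyr61, chr3:145649986-145650235, minus strand: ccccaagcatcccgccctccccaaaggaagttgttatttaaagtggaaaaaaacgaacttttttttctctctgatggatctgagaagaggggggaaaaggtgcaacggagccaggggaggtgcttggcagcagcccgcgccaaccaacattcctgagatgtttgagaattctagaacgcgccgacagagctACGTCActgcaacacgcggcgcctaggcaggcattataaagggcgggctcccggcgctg
Jun, chr4:95052223-95052472, minus strand: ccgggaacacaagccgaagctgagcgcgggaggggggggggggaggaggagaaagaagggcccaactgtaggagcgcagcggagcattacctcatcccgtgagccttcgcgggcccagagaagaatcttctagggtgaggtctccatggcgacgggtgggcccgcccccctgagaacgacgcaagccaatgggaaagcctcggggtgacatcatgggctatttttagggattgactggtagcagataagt
The match began at −66 in Fos, −166 in Btg2 and −59 in Cyr61, and the Jun window held none of these letters.

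Over all RefSeq promoters, the CRE core occurred in 6.47% of 32851 windows of 250 bases and in 7.29% of 27025 genes. Of the 41 immediate early genes, 32 matched a RefSeq promoter by symbol, and 16 of these (50%) held the core. The full palindrome, which contains both forms of the core, was in 1.77% of all genes and 6 of the 32 (18.8%). The CArG box, the site of serum response factor, was found on either strand in 1.62% of genes and 2 of the 32 (6.25%). None of the 4 listed starts of Csrnp1 had the CRE core. These are matches of letters and were not tested against the expression values.

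Fos, the AP-1 subunit used as a marker of recent activity, had 30.7 and 31.6 CPM in Hetero and 35.2, 44.0, 47.1 and 54.5 in cKO. The Hetero libraries were nearly equal and the cKO libraries spread widely above them, while Loxp lay higher still at 48.7 to 86.9 CPM. The Fos log2 fold change was 0.54 (SE 0.203, unadjusted p = 0.0201, edgeR adjusted p = 1), and 0.40 without the Y-bearing libraries. Btg2, an antiproliferative gene, had 9.81 and 10.1 CPM in Hetero and 22.5, 22.1, 15 and 27.4 in cKO (log2 fold change 1.13, SE 0.435). Cyr61, a matrix-associated signalling protein gene, had 4.34 and 5.35 CPM in Hetero and 10.4, 12, 7.24 and 11.1 in cKO (1.07, SE 0.421). For both genes cKO 3 was the lowest of the cKO libraries and still lay above Hetero.

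Csrnp1, a nuclear transcription factor gene, had 8.07 and 9.53 CPM in Hetero and 16.8, 11.8, 13.4 and 14.7 in cKO (log2 fold change 0.69, SE 0.254). Jun, the partner of Fos in AP-1, had 52.8 and 59.3 CPM in Hetero and 69.8, 80.5, 61.0 and 62.2 in cKO (log2 fold change 0.29, SE 0.128). The other 7 genes without overlap were Fosb, Dusp1, Sik1, Trib1, Gadd45b, Per1 and Plk2, which include a MAP kinase phosphatase (Dusp1) and a clock gene (Per1). Arc and Npas4, whose products act at synapses and in transcription after activity, had log2 fold changes of 0.47 (SE 0.301) and 0.48 (SE 0.304), and their libraries overlapped. Egr3 (−0.04), Nr4a3 (−0.04), Ier3 (−0.08) and Klf10 (−0.35) had negative values. The number with a positive value was 38 of 41 without Hetero 1, 34 without Hetero 2, 39 without cKO 2 and 34 without the Y-bearing libraries. The median was 0.25, 0.19, 0.20 and 0.16 in these 4 settings.

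**Figure D3:**
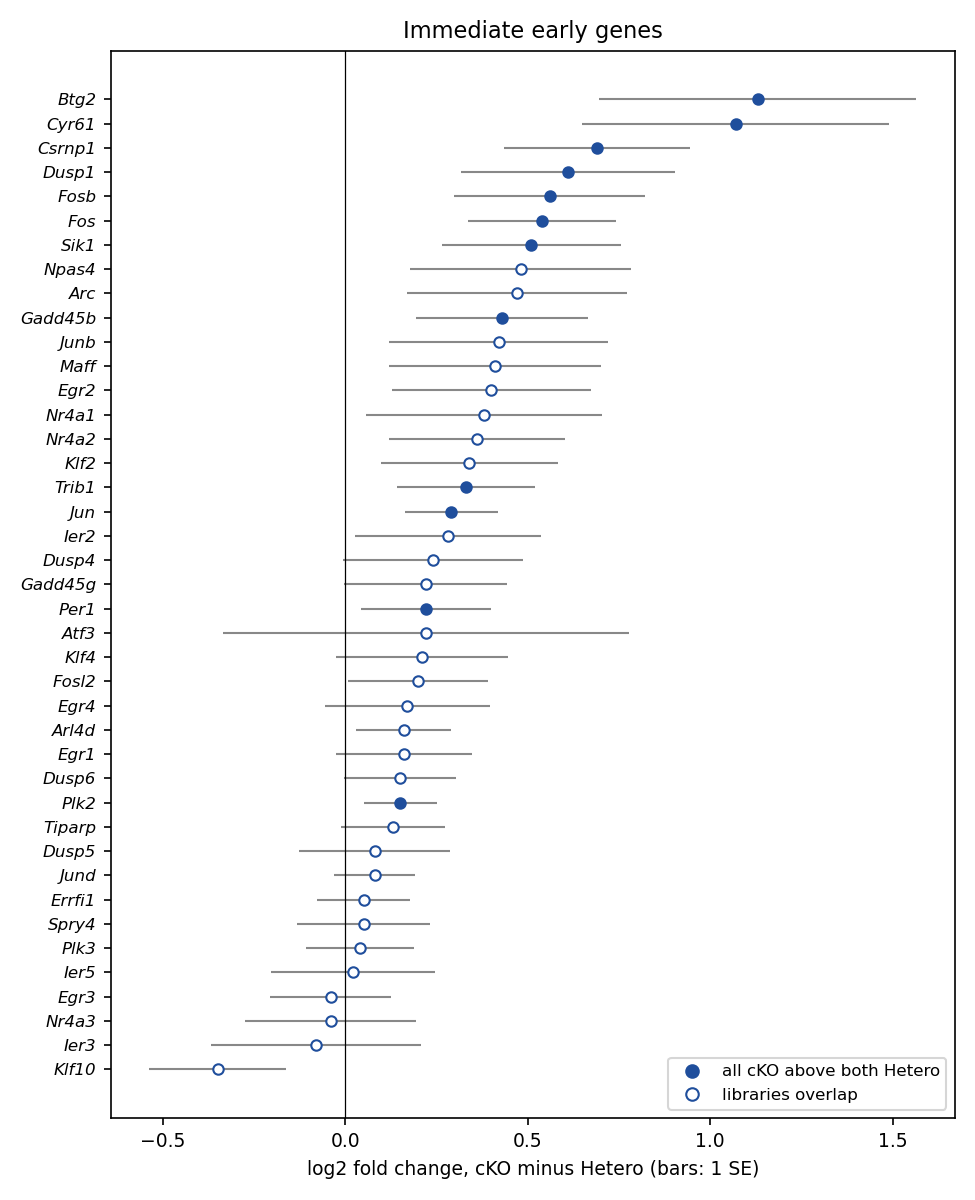
Log2 fold change, cKO minus Hetero, of the 41 immediate early genes, with bars of 1 SE. Filled circles are the 12 genes whose cKO libraries all lie above both Hetero libraries. Values run from Btg2 at 1.13 to Klf10 at −0.35, and none passed the adjusted threshold.

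The later wave after activity includes secreted proteins and growth factors. Of 22 late activity-regulated genes 6 were higher, the median was −0.06, and 0 had an unadjusted p under 0.05. The groups stood apart with cKO above in 1 (4.55%, beside 4.9% over all genes). They did so with cKO below in 3 (13.6%, beside 4.54%). Inhba, the activin subunit gene, had 15.8 and 16.2 CPM in Hetero and 14.7, 6.18, 13.0 and 12.2 in cKO, with cKO 2 far below the rest. Bdnf, the neurotrophin gene, had 24.4 and 26.8 CPM in Hetero and 17.0 to 26.6 in cKO (log2 fold change −0.25, SE 0.172). Without cKO 2, 11 of the 22 genes were higher and the median was 0.02. The difference between the immediate early and the late genes was not tested.

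Choroid plexus genes, from the epithelium that makes cerebrospinal fluid, had the largest median of the 34 lists in size. Of 20 listed genes 17 passed the low-count filter, and 17 of these had a negative log2 fold change, with a median of −2.27. At an unadjusted p under 0.05, 14 were lower (82.4%, beside 0.764% over all genes), and in 7 (41.2%, beside 4.54%) all cKO libraries lay below both Hetero libraries. The level of the list was 2.60 in Hetero 2 and 0.09 in Hetero 1, against 0.15, −0.44, −0.35 and −0.55 in cKO. Hetero 2 was thus far above every other library, while cKO 1 lay above Hetero 1. Without Hetero 2, 4 of the 17 genes were higher and the median was −0.28.

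Slc4a5, a bicarbonate transporter gene, had 6.20 CPM in Hetero 2, 0.460 in Hetero 1 and 0.125 to 0.432 in cKO (log2 fold change −3.69, SE 0.723, unadjusted p = 0.000189, edgeR adjusted p = 1). Aqp1, a water channel gene of the plexus epithelium, had 7.96 CPM in Hetero 2, 0.971 in Hetero 1 and 0.418 to 0.906 in cKO (log2 fold change −2.95). DESeq2 gave both an adjusted p of 0.0271. Without Hetero 2 the log2 fold change was −0.83 for Slc4a5 and −0.74 for Aqp1. Prlr, the prolactin receptor gene, had 3.69 CPM in Hetero 2, 0.715 in Hetero 1 and 0.259 to 0.585 in cKO. The 3 listed genes that did not pass the filter had the same shape in raw counts. Tmem72 had 143 counts in Hetero 2 and 0 to 5 in the other libraries, Otx2 had 58 and 0 to 5, and Kcne2 had 61 and 0 to 6.

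With Hetero 1 left out, so that cKO was set against Hetero 2 alone, edgeR called 14 genes, all lower in cKO, and 12 were on the choroid plexus list. The other 2, named after their values were seen, were Cldn2 and Mfrp. That fit assumes that the lone Hetero library varies like the other groups. With Hetero 2 left out, 0 genes were called.

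**Figure D4:**
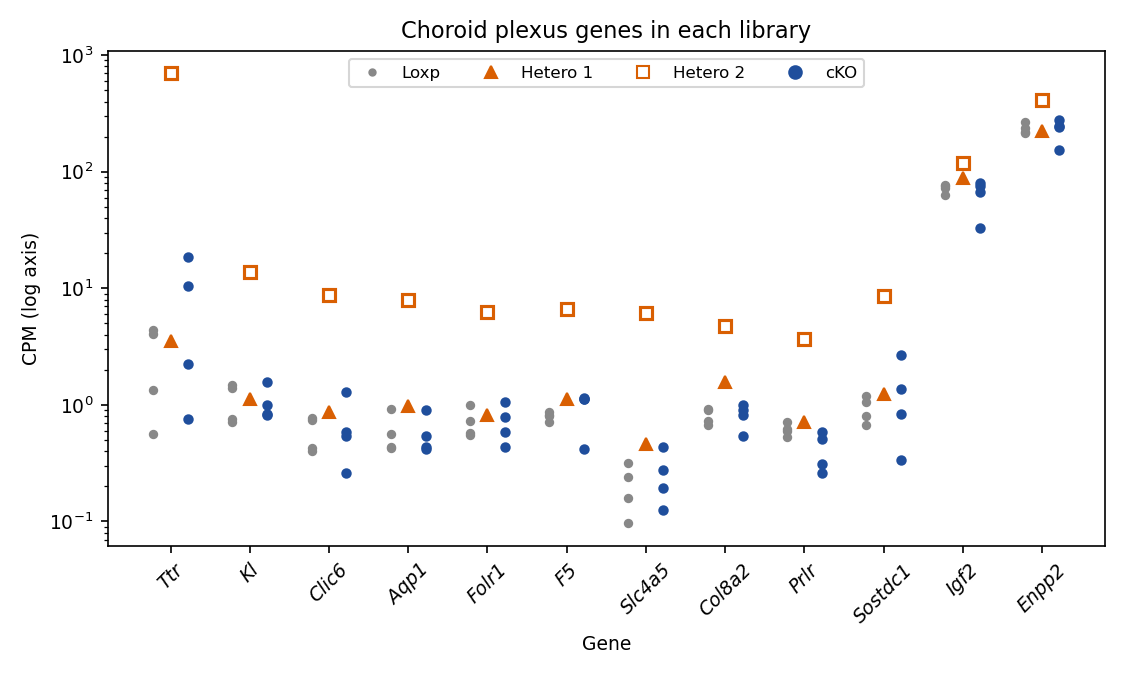
CPM of 12 choroid plexus genes in each library, on a log axis. The open square of Hetero 2 lies above all other libraries for every gene shown, and Hetero 1 lies near the cKO and Loxp libraries. Ttr reaches 699 CPM in Hetero 2.

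Meningeal fibroblast genes were negative in 18 of 18, with a median of −0.51. In 7 (38.9%, beside 4.54%) the cKO libraries lay below both Hetero libraries, and 1, Igf2, had an unadjusted p under 0.05. Igf2, a growth factor gene that is also on the choroid plexus list, had 88.6 and 119 CPM in Hetero and 75.6, 33.2, 67.3 and 79.7 in cKO (log2 fold change −0.70, SE 0.246). Col1a1, a fibrillar collagen gene, had 24.7 and 22.6 CPM in Hetero and 17.3, 10.8, 21.7 and 18.8 in cKO (−0.46, SE 0.218). Serping1, a complement inhibitor gene, and Col1a2 were ordered likewise. The level of the list was 0.37 and 0.46 in Hetero and −1.70 in cKO 2, with the other cKO libraries at 0.0048 to 0.35. Without cKO 2 the median was −0.25, and without both cKO 2 and Hetero 2, 12 of 18 genes were lower with a median of −0.19.

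Retinoid genes were considered by their place in the pathway. Among the 6 receptors of the RXR and RAR families 2 were higher, and Rxra was the only one with an unadjusted p under 0.05. Rara had 18.3 and 19.6 CPM in Hetero and 13.8 to 22 in cKO, and Rarb 7.61 and 5.71 CPM in Hetero and 2.72 to 8 in cKO. Both log2 fold changes (−0.17, SE 0.194, and −0.30, SE 0.375) changed sign without the Y-bearing libraries. Of 17 genes of retinoid metabolism and retinoic acid response, 6 were higher and the median was −0.05. At an unadjusted p under 0.05, 2 were lower (11.8%, beside 0.764% over all genes). These were Aldh1a3, given above, and Cyp26b1, the enzyme that breaks down retinoic acid. Cyp26b1 had 17.0 and 15.4 CPM in Hetero and 11.1, 10.4, 14.5 and 9.24 in cKO (log2 fold change −0.52, SE 0.211, unadjusted p = 0.0294, edgeR adjusted p = 1). It was −0.34 without the Y-bearing libraries. Aldh1a2, the synthesis enzyme that in brain is known from meninges, had 3.22 and 3.42 CPM in Hetero and 3.15, 0.475, 1.91 and 3.14 in cKO, where the low library, cKO 2, also had the low meningeal level.

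Receptors that pair with RXR were spread around 0: 7 of 10 tested were higher, the median was 0.10, and 0 had an unadjusted p under 0.05. Nr4a1 and Nr4a2, orphan receptors that are also immediate early genes, had log2 fold changes of 0.38 (SE 0.324) and 0.36 (SE 0.241). Nr4a1 was 0.16 without cKO 4, 0.60 without Hetero 1 and 0.19 without Hetero 2. Nr4a2 depended on 1 cKO library and was 0.08 without cKO 2. Thrb, a thyroid hormone receptor gene, had −0.17 (SE 0.131). Nr1h4, the bile acid receptor gene, had −1.83 (SE 0.924), on under 0.5 CPM in every one of the 6 libraries. Of 21 coregulators 11 were higher, with a median of 0.0005. Ncoa3, a coactivator gene, had 50.1 and 50.8 CPM in Hetero and 43.7 to 49.3 in cKO (log2 fold change −0.12, SE 0.107).

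Among 26 lipid genes that respond to LXR and PPAR, 17 were higher, with a median of 0.05. In 4 (15.4%, beside 4.9%) the cKO libraries lay above both Hetero libraries, and 1, Ucp2, had an unadjusted p under 0.05. Ucp2, a mitochondrial carrier gene, had 21.7 and 21.6 CPM in Hetero and 22.1, 28.7, 26.8 and 33.8 in cKO (log2 fold change 0.36, SE 0.158). Scd2 and Scd1, the stearoyl-CoA desaturases of brain, had log2 fold changes of 0.19 (SE 0.11) and 0.18 (SE 0.124). Without cKO 2 the list had 12 of 26 genes higher and a median of −0.01. Of 18 thyroid hormone targets in cortex, 9 were higher. Thrsp and Aldh1a3, both described above, were the members with an unadjusted p under 0.05, and they differed in opposite directions.

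Of 22 clock genes 18 (81.8%) were higher, the median was 0.12, and 0 had an unadjusted p under 0.05. With 1 cKO or Hetero library left out, 14 to 20 were higher, and the median was 0.06 without cKO 4 and 0.20 without cKO 2. Tef, a PAR bZIP output gene, had 306 and 321 CPM in Hetero and 325 to 389 in cKO (log2 fold change 0.18, SE 0.102). Dbp, another output gene, had 41.2 and 45.1 CPM in Hetero and 41.1 to 60.8 in cKO. Arntl, the gene of the clock activator BMAL1, was on the other side with 31.6 and 30.5 CPM in Hetero and 28.0 to 29.1 in cKO (−0.13, SE 0.0882). The sources used here give no time of tissue collection, and their part in these values was not tested.

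Glucocorticoid-responsive genes had 14 of 19 higher and a median of 0.18. Ddit4 and Mertk had an unadjusted p under 0.05 (10.5%, beside 0.975%). Ddit4, an mTOR inhibitor gene, had 61.5 and 71.9 CPM in Hetero and 76.8, 85.6, 75.3 and 83.6 in cKO (log2 fold change 0.27, SE 0.0999, and 0.16 without Hetero 1). Mertk, a receptor gene for engulfment of debris, had 35.5 and 37.4 CPM in Hetero and 40.6 to 53.5 in cKO (0.34, SE 0.134). Fkbp5, a widely used reporter of glucocorticoid action, had 27.2 and 31.0 CPM in Hetero and 35.2, 29.6, 42.2 and 68.4 in cKO, with cKO 4 the highest. Without Hetero 1 the median of the list was 0.07.

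Among glia, 15 of 15 astrocyte genes had a positive log2 fold change, with a median of 0.19. The groups stood apart, cKO above, in 5 (33.3%, beside 4.9%), and 2 (13.3%, beside 0.975%) had an unadjusted p under 0.05. Aldoc, a glycolytic enzyme gene, had 644 and 665 CPM in Hetero and 698, 791, 725 and 774 in cKO (log2 fold change 0.19, SE 0.0884). Slc25a18, a mitochondrial glutamate carrier gene, had 29.3 and 33.9 CPM in Hetero and 34.1, 48.0, 38.3 and 36.3 in cKO (0.31, SE 0.133, and 0.19 without cKO 2). S100b and Fgfr3 had log2 fold changes of 0.21 (SE 0.0991) and 0.24 (SE 0.121). The Fgfr3 value was 0.13 without Hetero 1 and 0.36 without Hetero 2. The astrocyte level was highest in cKO 2 at 0.18, and without that library 12 of 15 genes were higher with a median of 0.08.

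Microglial genes were higher in 13 of 15, with a median of 0.18, and in 7 (46.7%, beside 4.9%) every cKO library lay above both Hetero libraries. Among these were Selplg, Tmem119, C1qa, C1qb, C1qc and Csf1r, and in the list Selplg alone had an unadjusted p under 0.05. C1qb, a complement subunit gene, had 25.6 and 28.1 CPM in Hetero and 28.3, 35.3, 29.3 and 38.0 in cKO (log2 fold change 0.28, SE 0.136), and 0.10 without the Y-bearing libraries. Csf1r, the receptor on which microglia depend, had 73.7 and 73.9 CPM in Hetero and 79.6 to 93.7 in cKO. The median was 0.11 without cKO 2 and 0.10 without the Y-bearing libraries.

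Oligodendrocyte genes depended on which Hetero library was used. Their level was 0.20 in Hetero 1 and −0.34 in Hetero 2, with 0.05, −0.79, 0.04 and 0.24 in cKO. The median log2 fold change was 0.01 with both, 0.31 with Hetero 2 alone and −0.24 with Hetero 1 alone, with 16 and then 0 of 17 genes higher. Mobp, a myelin protein gene, had 928 and 631 CPM in Hetero 1 and 2 and 592 to 1109 in cKO. Precursor genes were higher in 11 of 12 (median 0.14), but in 1 of 12 without cKO 2 (median −0.04). Ptprz1, a phosphatase gene of precursors and astrocytes, had 323 CPM in cKO 2 against 158 to 197 in the other 5 libraries.

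Among neuronal markers, layer 5 genes were lower in 12 of 15, with a median of −0.21, and in 4 (26.7%, beside 4.54%) the cKO libraries lay below both Hetero libraries. Fezf2, which specifies deep-layer projection neurons, had 59.3 and 59.5 CPM in Hetero and 46.7, 54.3, 53.9 and 39.3 in cKO (log2 fold change −0.29, SE 0.156). Etv1 had 75.7 and 70.4 CPM in Hetero and 65.6, 59.6, 68.5 and 48.8 in cKO (−0.27, SE 0.132), and Ldb2 and Qrfpr were ordered likewise. cKO 4 was lowest for Fezf2, Etv1 and Ldb2. The layer 5 median was −0.08 without cKO 4 and −0.09 without the Y-bearing libraries, and 0 genes of the list had an unadjusted p under 0.05.

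Layer 2 to 4 genes were higher in 13 of 16, with a median of 0.11, and Wfs1, a marker of upper-layer neurons, had 52.0 and 59.3 CPM in Hetero and 55.6 to 90.6 in cKO. The median of that list was 0.02 without cKO 4, and 8 to 14 genes were higher with 1 cKO or Hetero library left out. Interneuron genes were higher in 15 of 19, with a median of 0.07. In 4 (21.1%, beside 4.9% over all genes) the cKO libraries lay above both Hetero libraries. Htr3a, the ionotropic serotonin receptor gene, had 5.41 and 5.44 CPM in Hetero and 6.35 to 8.16 in cKO (log2 fold change 0.38, SE 0.2). Vip and Dlx2 had log2 fold changes of 0.17 (SE 0.0905) and 0.25 (SE 0.164), with 0.09 for Vip without Hetero 1 and 0.15 for Dlx2 without Hetero 2. Of 18 endothelial and mural genes 11 were higher, with a median of 0.05, and Vtn was the only one with an unadjusted p under 0.05. Without cKO 2, 5 of the 18 were higher with a median of −0.08, and without the Y-bearing libraries 4 were, with a median of −0.14. Tek, an endothelial receptor gene, had −0.33 (SE 0.18), and −0.18 without Hetero 1.

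**Figure D5:**
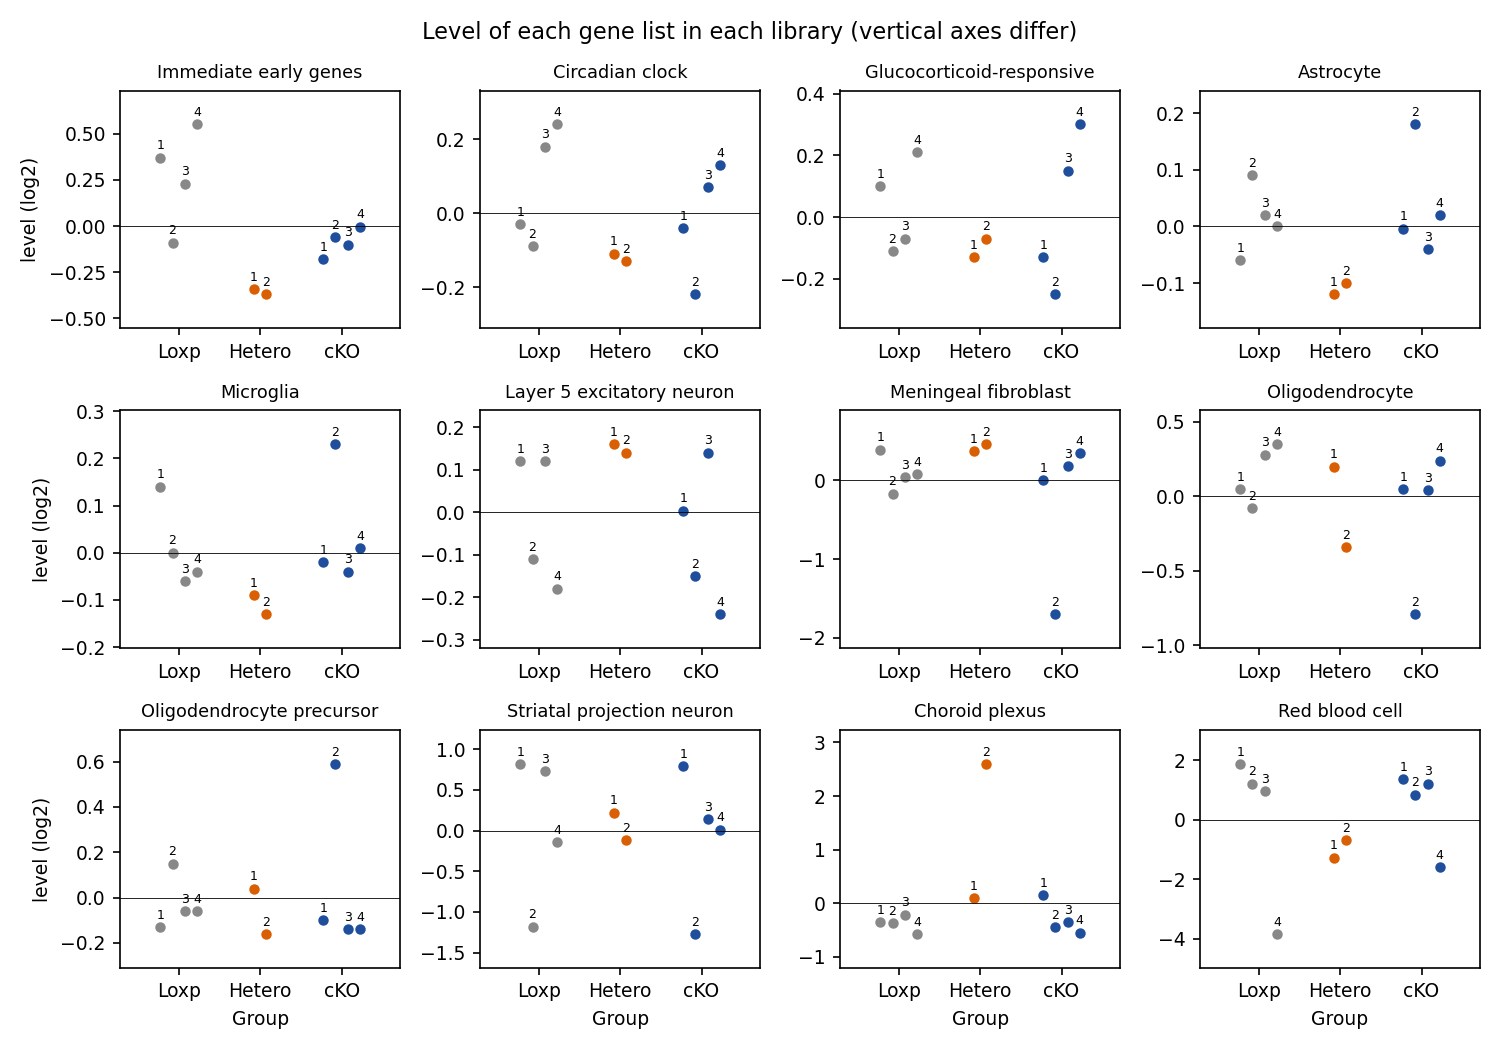
Level of 12 gene lists in each library, as the mean centred log2 CPM of the list's genes, with the replicate number above each point. The 2 Hetero libraries lie together and low for the immediate early, astrocyte and microglial lists. Hetero 2 alone is high for choroid plexus, and cKO 2 is far from the other cKO libraries for the meningeal, oligodendrocyte, precursor and striatal lists. Loxp 2 is also low for the striatal list (−1.18).

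Haemoglobin and haem synthesis genes of red blood cells were higher in 5 of 5, with a median of 1.80, but their libraries overlapped. Hba-a1, an alpha globin gene, had 8.38 and 13.4 CPM in Hetero and 65.5, 36.0, 65.3 and 10.2 in cKO (log2 fold change 2.02, SE 1.03). cKO 4 thus sat at the Hetero level, and Loxp ranged from 0.837 to 84.1 CPM. Alas2, which starts haem synthesis in red cells, had 0.613 and 0.989 CPM in Hetero and 3.39, 4.06, 3.47 and 0.711 in cKO (1.84, SE 0.832). Hbb-bs and Hbb-bt had log2 fold changes of 1.80 and 1.75, and reads can be split between near-identical globin copies. The amount of blood left in the tissue was not measured and its part in these values was not tested.

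Mitochondrially encoded genes were higher in 9 of 13 with a median of 0.12. Apart from mt-Nd4l and mt-Co3 none had an unadjusted p under 0.05. mt-Cytb, of complex III, had 5001 and 5012 CPM in Hetero and 5152 to 6127 in cKO, and mt-Nd4, of complex I, had 2160 and 2195 CPM in Hetero and 2280 to 2621 in cKO. Cytosolic ribosomal protein genes were higher in 64 of 78 (82.1%) with a median of 0.06, but in 22 of 78 without cKO 2 (median −0.03). Rps14 had 229 CPM in each Hetero library and 244 to 263 in cKO (log2 fold change 0.16, SE 0.103). Small medians of this kind also depend on scaling: with library size alone, 48.3% of all genes were higher rather than 52.5%.

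The remaining lists had medians of −0.04 to 0.10. These were 0.02 for ionotropic glutamate receptors (8 of 15 higher), 0.0030 for GABA-A receptor subunits (6 of 12), 0.01 for synaptic vesicle and scaffold genes (22 of 32) and −0.04 for voltage-gated potassium channels (9 of 21). Barrel map formation genes had a median of −0.01 (8 of 17), sterol biosynthesis 0.05 (19 of 24), heat shock and unfolded protein response genes −0.0007 (14 of 29), and nuclear-encoded respiratory chain genes −0.01 (29 of 75). Layer 6 and subplate genes had −0.04 (7 of 17 entries), hippocampal and thalamic genes 0.04 (8 of 14), and striatal genes 0.10 (15 of 19). In the last list cKO 2 had a level of −1.27 and cKO 1 of 0.79, wider than the gap between the groups. The Loxp libraries of the same numbers were alike, with −1.18 in Loxp 2 and 0.82 in Loxp 1. Hetero 2 and Hetero 1 had −0.12 and 0.22. The median of the striatal list was −0.28 without cKO 1 and 0.39 without cKO 2. For sterol biosynthesis, 12 of 24 were higher without Hetero 2 (median −0.0012), and the median was 0.10 without Hetero 1. With 1 cKO or Hetero library left out, the medians of the other lists of this paragraph lay between −0.09 and 0.04. In these lists the members with an unadjusted p under 0.05 were Bag3, of the heat shock list, and Ramp3, a receptor-modifying protein gene of the thalamic list (log2 fold change −0.34), which was named after its value was seen.

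Genes near the 2 engineered loci were counted apart. Within 10 Mb of Rxra, 296 genes were tested and 142 were higher. The groups stood apart with cKO above in 13 (4.39%) and below in 12 (4.05%), near the background of 4.9% and 4.54%. An unadjusted p under 0.05 was seen in 4 higher (1.35%, beside 0.975% over all genes) and 2 lower genes (0.676%, beside 0.764%). Dnlz, a mitochondrial chaperone gene, had 48.4 and 49.0 CPM in Hetero and 31.8, 39.7, 36.3 and 36.5 in cKO (log2 fold change −0.43, SE 0.146, unadjusted p = 0.0107, edgeR adjusted p = 1). The groups were well apart, and the value was −0.52 without the Y-bearing libraries. Trub2, a pseudouridine synthase gene, had 35.5 and 37.4 CPM in Hetero and 40.3 to 47.5 in cKO (0.27, SE 0.109), and Clic3 had 0.62 (SE 0.339), with 0.37 without Hetero 2. Cercam, given above, is also in this window.

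Within 10 Mb of Neurod6, 55 of 111 tested genes were higher. The groups stood apart with cKO above in 3 (2.7%, beside 4.9% over all genes) and below in 6 (5.41%, beside 4.54%). An unadjusted p under 0.05 was seen in 0 higher (beside 0.975% over all genes) and 2 lower genes (1.8%, beside 0.764%). Dfna5, given above, had the smallest p there. Cbx3, a heterochromatin protein gene, had 61.5 and 61.7 CPM in Hetero and 55.8 to 57.8 in cKO (log2 fold change −0.12, SE 0.108). Nod1, an innate immune sensor gene, had −0.21 (SE 0.151), and Fam13a had 0.25 (SE 0.146), with 0.16 without cKO 4.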

How the data were processed

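RNA-seq of S1BF was deposited as read counts per gene. Per the submitters' processing notes, the authors used featureCounts 1.5.0-p3 and the build mm10. The sources used here give neither aligner nor strand setting. The authors also deposited FPKM values (scaled by gene length and depth), which were kept beside the counts for reference and not tested. The authors' own test columns were not used. Counts were whole numbers totalling 19332990 to 26086337 per library.

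edgeR 4.0.16 (R 4.3.3; TMM, filterByExpr, glmQLFit, glmQLFTest) was fitted on all 10 libraries by group, so the Loxp libraries help to estimate the spread. The contrast was cKO minus Hetero, with Benjamini-Hochberg adjustment over 18455 genes at 0.05. The common biological coefficient of variation was 14.9%. The SE is the log2 fold change over the root of its F statistic. Log2 CPM used a prior count of 2. Unadjusted p-values are edgeR's. The fit was tested on simulated data.

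Rxra, Rxrb, Rxrg and Neurod6 are always named. Then come 12 genes a side by smallest p with mean log2 CPM over 0 and no overlap, 6 a side with 1 Hetero library within the cKO range and 1 outside it, and 1 to 4 members of each described list by smallest p, with clone names, pseudogenes and Y genes left out. Members and the 34 lists were chosen with earlier results of these data known, and members named outside this rule after their values were seen. One list member is not reported here. Gene IDs were matched to GENCODE M21 (52403 of 52636), and promoters to RefSeq (GRCm38.p6). In the lists, Ecrg4 was found under its synonym 1500015O10Rik and Ccn2 as Ctgf. Ctgf was itself listed among the 17 layer 6 and subplate entries, so that gene may be counted more than once there.

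Alternatives were DESeq2 1.42.0, limma-voom 3.58.1, DESeq2 size factors, scaling by library size alone, a filter at 1 CPM in 2 libraries or none, a fit without Loxp, a block for the replicate number, and each library left out. Alternatives chosen after seeing the data were leaving out cKO 2 with Hetero 2, and the Y-bearing libraries.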

Additional observations from a re-analysis of the deposited data

Results flagged for a closer look

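In 7 of 74 sets of values over the 4 cKO libraries, 1 library stood far from the other 3, measured as its gap to the nearest library over the whole range. Chance flags about 1 in 20 such sets. For F5, coagulation factor V, the ratio was 0.972: cKO 4 had 0.418 CPM against 1.12 to 1.14 in the others. In the other 6 sets the library was cKO 2. Its list level was high for LXR and PPAR lipid targets (0.31, ratio 0.93) and oligodendrocyte precursors (0.59, ratio 0.937). It was low for voltage-gated potassium channels (−0.32, ratio 0.875), thyroid hormone targets in cortex (−0.26, ratio 0.932), meningeal fibroblasts (−1.70, ratio 0.832) and layer 6 and subplate neurons (−0.37, ratio 0.887). Ptgds, an abundant meningeal transcript, had 4.71 CPM in cKO 2 and 195 to 301 in the other cKO libraries. The 74 sets did not cover every named gene. Outside them, Csf1r (cKO 2 highest at 93.7 CPM) and Fgfr3 (cKO 4 highest at 159 CPM) each had a ratio of 0.838.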

How the results depend on the processing

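The number of genes called was 0 in the fit reported, 39 with no low-count filter (15 higher and 24 lower in cKO, 15 on the choroid plexus list), 3 with DESeq2, and 0 to 14 with 1 library left out. The 14 came without Hetero 1. It was 0 in each other setting. The higher genes called with no filter included the Y-linked Ddx3y, Eif2s3y, Kdm5d and Uty. Esd, Btg2, Thrsp, Cyr61, mt-Nd4l, Hba-a1 and Hbb-bs were also among them. The number without overlap was 1741, and it was 2706 with no filter, 9436 without cKO 2 and Hetero 2, 6853 without the Y-bearing libraries, and 2688 to 5610 with 1 cKO or Hetero library left out, as fewer libraries overlap less. The choroid plexus median went from −2.27 to −0.21 without cKO 2 and Hetero 2, and ran from −2.78 to −0.28 (without Hetero 2) with 1 library left out. The immediate early median ran from 0.19 to 0.30 (without cKO 1).

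Of 103 named genes over 2054 gene settings, 29 settings passed the adjusted threshold and 13, in 7 genes, changed sign. Rxrg was −0.26 with the block, −0.08 with limma-voom, −0.09 without Hetero 2, −0.28 without cKO 1 and −0.04 without cKO 3. Ttr was 1.18 without Hetero 2 and 1.02 without cKO 2 and Hetero 2, and Sostdc1 0.08 without Hetero 2. Mobp was −0.07 with the block and −0.10 without Hetero 2. Without the Y-bearing libraries Neurod6 was 0.05, Rara 0.03 and Rarb 0.05. With 1 library left out, Rxrg reached 0.36 (without cKO 2) and Mobp 0.46, Ttr −6.44 and Sostdc1 −2.72 (each without Hetero 1). The cause was not tested.

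With the replicate number as a block 0 genes were called (smallest adjusted p 0.249 by edgeR), and 285 genes were higher and 247 lower at an unadjusted p under 0.05, against 180 and 141 without it. Deviations of same-numbered libraries correlated at 0.02 and 0.01 between Hetero and cKO, −0.04 and −0.02 between Loxp and Hetero, and 0.09, 0.27, 0.11 and 0.45 between Loxp and cKO. Each Loxp and cKO library, but neither Hetero library, correlated best with its own number, a hint from the data and not the design. Deviations were taken from the group mean, so those of the 2 Hetero libraries mirror each other and cannot decide whether Hetero is paired. The labels do not say that a number marks a litter or batch, so the numbers were not taken to pair the samples. Any difference shared by number therefore stays in the spread behind the SE and p-values of the fit reported. Genes under 1 CPM rest on few counts, and 2 Hetero libraries limit every comparison.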

Other observations

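Gm35082, a gene model with a clone name only, had 0 CPM in both Hetero libraries, 0.197, 1.30, 0.973 and 2.13 in cKO, and 0.0963, 2.01, 1.85 and 2.63 in Loxp. No fold change is given against a group at 0. It was named after its values were seen.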
